A study of Bos taurus with 60 samples.

Results

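The miR-17-92 cluster and its paralogues were followed through the livers of 60 beef steers by small RNA sequencing. The members were the 10 mature miRNAs whose names in the count files are bta-miR-17-5p, bta-miR-18a, bta-miR-19a, bta-miR-20a, bta-miR-19b and bta-miR-92a (6 miRNAs of the miR-17-92 cluster), bta-miR-106b, bta-miR-93 and bta-miR-25 (3 miRNAs of the miR-106b-25 cluster) and bta-miR-363 (1 miRNA of the miR-106a-363 cluster). They were chosen by name, and all 10 were found among the 1030 mature miRNAs counted. The steers were 20 purebred Angus, 20 purebred Charolais and 20 Kinsella Composite (KC), a crossbred population. In each breed 6 steers were labelled low-RFI, 6 were labelled high-RFI and 8 carried no RFI group. Residual feed intake (RFI) is the feed an animal eats beyond what its weight and growth predict, so a low-RFI steer is an efficient one.

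All steers were castrated at birth, were raised on the same ranch and received the same barley-based finishing diet with rumensin pellets. They were slaughtered at a set backfat thickness, and the age at slaughter differed between the breeds, so that breed and age cannot be told apart here. Low-RFI and high-RFI steers were chosen by the study from both ends of the RFI range, and also for miRNA profiles that resembled the rest of their breed. The labels gave 23 sire codes, 7 in Angus, 5 in Charolais and 11 in KC, and half-siblings are not independent. The code of KC low-RFI replicate 3 had another form than the rest and may stand for an unknown sire. All p-values below treat the steers as independent unless the sire is named. The counts summed to between 1930859 and 6759381 per steer, with a median of 4390275, and 3 counts corresponded to between 0.444 and 1.55 read counts scaled to library size (counts per 1000000, CPM). Counting errors and the limit of 3 counts cover counting alone, since reads carried no molecular identifiers, whereas the intervals of fold changes also cover the spread between steers. The labels did not give the sequencing pool of a library.

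The miR-17-92 cluster is a short stretch of DNA from which 1 long primary transcript is made. Drosha cuts the hairpins out of it and Dicer trims them to the mature miRNAs. Each mature miRNA guides an Argonaute protein to messenger RNAs that pair with its seed, the bases near its 5′ end, and lowers the output of those messages. The cluster is activated by MYC and E2F transcription factors, is required for normal development of B cells, lung and heart, and is often amplified in tumours, where it limits messages such as that of the pro-apoptotic BIM protein. In the liver its members are raised in regenerating tissue and in hepatocellular carcinoma. The paralogous clusters arose by duplication: miR-106b-25 lies in an intron of MCM7, a gene of the DNA replication helicase, and miR-106a-363 lies on the X chromosome.

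The mature sequences of all 10 members are shown because the seeds divide them into families that cut across the clusters. They are the miRBase sequences listed with the study, written 5′ to 3′ with bases 2 to 8, the seed, in capitals.
bta-miR-17-5p: cAAAGUGCuuacagugcagguagu
bta-miR-20a: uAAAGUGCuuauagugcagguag
bta-miR-106b: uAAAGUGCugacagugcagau
bta-miR-93: cAAAGUGCuguucgugcaggua
bta-miR-18a: uAAGGUGCaucuagugcagaua
bta-miR-19a: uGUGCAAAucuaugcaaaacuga
bta-miR-19b: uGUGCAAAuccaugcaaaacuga
bta-miR-92a: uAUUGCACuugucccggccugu
bta-miR-25: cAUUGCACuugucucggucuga
bta-miR-363: aUUGCACGguauccaucugcg
The 10 members held 5 distinct seeds. The seed AAAGUGC was shared by bta-miR-17-5p and bta-miR-20a of the miR-17-92 cluster and by bta-miR-106b and bta-miR-93 of the miR-106b-25 cluster. The seed AUUGCAC was shared by bta-miR-92a and bta-miR-25, again 1 from each cluster. bta-miR-19a and bta-miR-19b shared GUGCAAA, and bta-miR-18a alone among the members held AAGGUGC. bta-miR-363 carried the letters AUUGCAC at bases 1 to 7 instead of 2 to 8, so its listed mature form started 1 base later.

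Some members differ by so few bases that reads from a trimmed or misread copy can be credited to the other. bta-miR-19a and bta-miR-19b differed at 1 aligned position and bta-miR-17-5p and bta-miR-20a at 2, so their separate counts are uncertain to that extent. bta-miR-92a and bta-miR-25 differed at 4 positions and bta-miR-106b and bta-miR-93 at 5. In the gene order of the RefSeq annotation of the ARS-UCD2.0 assembly the 6 genes of the miR-17-92 cluster stood side by side as MIR17, MIR18A, MIR19A, MIR20A, MIR19B and MIR92A-1. MIR106B, MIR93 and MIR25 lay inside MCM7, and MIR363 stood beside MIR92A-2, MIR19B-2, MIR20B, MIR18B and MIR106A. The mature bta-miR-92a and bta-miR-19b can therefore come from either the miR-17-92 or the miR-106a-363 cluster, and each was counted on 2 precursors. Counts of bta-miR-92a on its first precursor were 1.48 times those on its second (range over steers 1.40 to 1.58), and for bta-miR-19b the median ratio was 0.996, with a lowest value of 0.988. As the mature sequences are the same, these ratios do not show how much each locus made, and the mean over the precursors was used.

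The level of the 10 members spanned more than 3 orders of magnitude, and bta-miR-92a stood far above the rest. Together the members took 0.981% ± 0.160 (SD, n = 60) of all miRNA counts, with a range of 0.508% to 1.37%. bta-miR-92a alone made up 70.0% ± 4.03 of the members' counts (SD, n = 60). Its level ran from 4222 to 9555 CPM with a median of 6819 CPM, the rank of 20 among the 1030 miRNAs. bta-miR-25, its seed partner in the miR-106b-25 cluster, followed at 1531 to 2851 CPM with a median of 1973 CPM. The mature members are of similar length, 21 to 24 bases, so the levels were compared without division by length.

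The third member in order, bta-miR-93, lay between 328 and 492 CPM with a median of 415 CPM. bta-miR-19b, the most abundant member after it, lay between 206 and 452 CPM with a median of 309 CPM. Below these came a group of 4 members of near-equal level. The medians were 51.6 CPM for bta-miR-20a, 41.4 CPM for bta-miR-106b, 39.0 CPM for bta-miR-17-5p and 35.7 CPM for bta-miR-19a. The lowest level among these 4 in any steer was 21.7 CPM and the highest was 71.6 CPM. bta-miR-18a, from the hairpin next to that of bta-miR-17-5p, was scarce at 2.46 to 7.46 CPM with a median of 5.06 CPM. bta-miR-363 was the scarcest, at 0.630 to 8.13 CPM with a median of 3.32 CPM, which rested on 3 to 45 counts per steer.

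The order held in every steer at 4 of its 9 steps. bta-miR-92a exceeded bta-miR-25 in 60 of 60 steers, by a median of 3.50-fold, and bta-miR-25 exceeded bta-miR-93 in 60 of 60, by a median of 4.76-fold. bta-miR-93 exceeded bta-miR-19b in 57 steers and bta-miR-20a exceeded bta-miR-106b in 51. The median ratio of bta-miR-106b to bta-miR-17-5p was 0.15 on the log2 scale with an SD over steers of 0.24. That of bta-miR-17-5p to bta-miR-19a was 0.09 with an SD of 0.32. Both medians were smaller than the spread of single steers, but the first miRNA was higher in 44 and 41 of 60 steers. For bta-miR-18a and bta-miR-363 the median log2 ratio was 0.47 with an SD of 0.74, and bta-miR-18a was higher in 45 steers. The order at these steps was not tested.

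**Figure D1:**
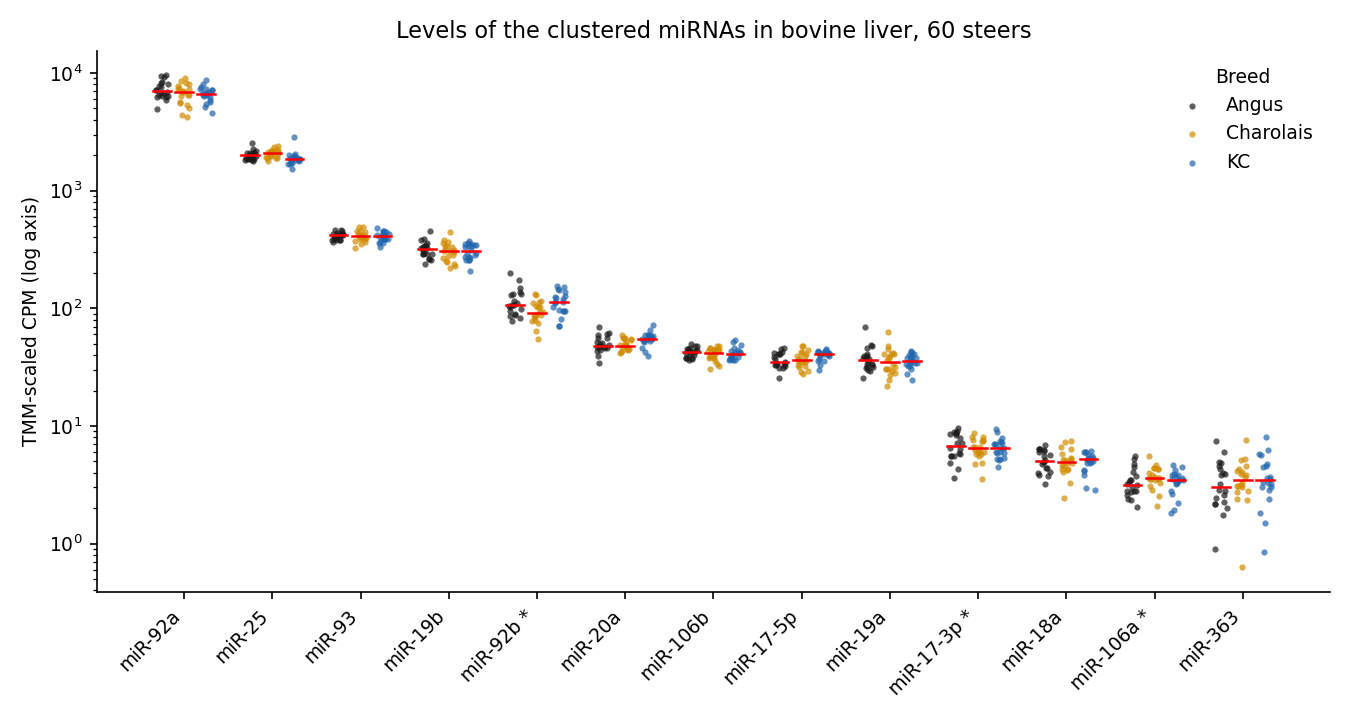
Level of each of the 10 members, and of 3 related miRNAs with an asterisk, in TMM-scaled CPM on a log axis, with 1 point per steer, colours for the breeds and a red bar at each breed's median. bta-miR-92a had a median of 6819 CPM and bta-miR-363 a median of 3.32 CPM, and the 3 breeds covered nearly the same range in each member.

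Members grouped in 1 cluster thus differed widely in level. Within the miR-17-92 members, bta-miR-92a gave a median of 93.8% of the summed CPM (90.9% to 96.1% over steers). Part of its counts may come from the miR-106a-363 cluster, so this share need not be the output of 1 transcript. Within the miR-106b-25 members, bta-miR-25 gave a median of 81.2% (77.6% to 87.1%). In both sets of members the most abundant miRNA was therefore the one with the AUUGCAC seed. Grouped by seed in place of cluster, the 4 listed miRNAs with AUUGCAC, which were the 2 members with bta-miR-92b and bta-miR-32, summed to a median of 8986 CPM, of which bta-miR-92a was 75.7%. The 6 listed miRNAs with AAAGUGC summed to a median of 545 CPM, of which bta-miR-93 was 75.1%. bta-miR-19a and bta-miR-19b together summed to a median of 346 CPM, and bta-miR-18a and bta-miR-18b to 5.43 CPM.

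Products of the same loci outside the 10 members were low. bta-miR-17-3p, from the other arm of the bta-miR-17 hairpin, had a median of 6.48 CPM (3.55 to 9.67 CPM), below bta-miR-17-5p, whose lowest steer was at 25.3 CPM. The X-linked cluster gave little that could be assigned to it alone. bta-miR-106a had a median of 3.50 CPM (1.84 to 5.56 CPM), bta-miR-18b was at 0 counts in 15 steers with at most 6 counts, and bta-miR-20b was at 0 counts in 13 steers with at most 5 counts. A count of 0 allows up to 3 counts, or at most 1.55 CPM in the shallowest library. bta-miR-106a and bta-miR-20b each differed from bta-miR-17-5p at 1 aligned position, and bta-miR-18b differed from bta-miR-18a at 1. bta-miR-92b, which shares the seed of bta-miR-92a but comes from another locus, had a median of 104 CPM (55.3 to 200 CPM).

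Pooled over the breeds, the spread between steers was lowest in the miR-106b-25 members, which is a description without a test. Within single breeds the order changed, with an SD in KC of 0.15 for bta-miR-17-5p against 0.17 for bta-miR-25, and in Charolais of 0.15 for bta-miR-20a against 0.19 for bta-miR-106b. The SD of log2 CPM between steers of a breed was 0.13 for bta-miR-93 and 0.14 for bta-miR-25, and 2.77% and 3.53% of the 397 miRNAs tested over 60 steers had a lower one. The SD was 0.17 for bta-miR-106b, 0.20 for bta-miR-20a, 0.20 for bta-miR-17-5p, 0.24 for bta-miR-19b, 0.26 for bta-miR-92a and 0.30 for bta-miR-19a. Counting alone would give 0.0087 for bta-miR-92a and 0.035 for bta-miR-93, far under what was seen. For bta-miR-18a the SD of 0.33 equalled that of counting, 0.33, so no variation between steers could be detected at this depth. bta-miR-363 had an SD of 0.68 against a counting SD of 0.42. The study used bta-miR-93, together with bta-miR-192, as a qPCR reference in Charolais, chosen by abundance and by stability in geNorm. In the sequencing counts, another measure, the SD of bta-miR-93 in Charolais was 0.15 over 20 steers. That was the rank of 20 from the lowest of 397 miRNAs. bta-miR-25 had a lower SD there, 0.11, at rank 5. The median SD over all tested miRNAs in Charolais was 0.43.

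Whether the members differ between efficient and inefficient steers was asked in each breed with the rule of the study, an unadjusted p under 0.05 and a fold change above 1.5, here with the quasi-likelihood test of edgeR. In Angus the rule called 0 of 10 members, beside 2.41% of all tested miRNAs. In Charolais it called 0 of 10 members, beside 1.88% of all. In KC 1 of 10 members was called, beside 1.82% of all, and 1 call in 30 tests of members is near that background. In KC 1.04% of the tested miRNAs were called higher in low-RFI steers, the direction of that member. In Angus and Charolais 0 members had an unadjusted p under 0.05, and the likelihood ratio test of edgeR and DESeq2 called 0 members in either breed too. No member had values in low-RFI and high-RFI steers that were free of overlap in any breed, where 0.504% of Angus, 0.252% of Charolais and 0.252% of KC comparisons over all miRNAs were so.

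The most abundant member showed how close the groups were. bta-miR-92a in Angus ranged from 6302 to 8426 CPM with a median of 6974 CPM in low-RFI steers, and from 4993 to 9263 CPM with a median of 7240 CPM in high-RFI steers. In Charolais it ranged from 5642 to 9006 CPM with a median of 6804 CPM in low-RFI steers, and from 5052 to 8167 CPM with a median of 6214 CPM in high-RFI steers. In KC it ranged from 5841 to 7279 CPM with a median of 6952 CPM in low-RFI steers, and from 5653 to 7612 CPM with a median of 6861 CPM in high-RFI steers. The groups overlapped over most of their range in each breed. The log2 fold change, low-RFI over high-RFI, had a 95% interval of -0.21 to 0.27 around 0.03 in Angus, of -0.23 to 0.37 around 0.07 in Charolais and of -0.16 to 0.17 around 0.00 in KC.

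For bta-miR-25 the Angus log2 fold change was 0.05 (interval -0.11 to 0.20), the Charolais one -0.05 (-0.25 to 0.16) and the KC one -0.03 (-0.14 to 0.09). For bta-miR-93 the Angus value was 0.10 (-0.06 to 0.25), the Charolais value -0.01 (-0.22 to 0.21) and the KC value 0.07 (-0.11 to 0.24). The intervals of these abundant and stable members thus ended short of the 1.5-fold change that the rule asks for. bta-miR-17-5p, which names the cluster, had log2 fold changes of 0.07, 0.05 and 0.06 in the same order, with intervals that all included 0.

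All 10 members had a positive log2 fold change in Angus, from 0.02 to 0.36, with a median of 0.09 against 0.01 over all tested miRNAs, and the lowest unadjusted p was 0.202. In Charolais 3 were positive and 7 negative, from -0.29 to 0.07, with a median of -0.02 against 0.00. In KC 5 were positive and 5 negative, from -0.12 to 0.85, with a median of 0.00 against 0.03. These signs depended on the setting. With library totals 9 of 10 were positive in Charolais and 7 of 10 in KC, and over the alternatives that kept all 10 members the positive ones numbered 7 to 10 in Angus, 1 to 9 in Charolais and 2 to 7 in KC. The members vary together in part, so that equal signs in a breed are not separate observations. With sire as a block, bta-miR-19a passed the rule in Angus, with a log2 fold change of 0.70 and an unadjusted p of 0.0144, where the fit without sire gave 0.25 and 0.212. Only 2 Angus sires had steers in both groups, and that fit left 5 residual degrees of freedom. Without low-RFI replicate 6, the highest steer at 69.0 CPM, the log2 fold change of bta-miR-19a in the fit without sire was 0.036.

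**Figure D2:**
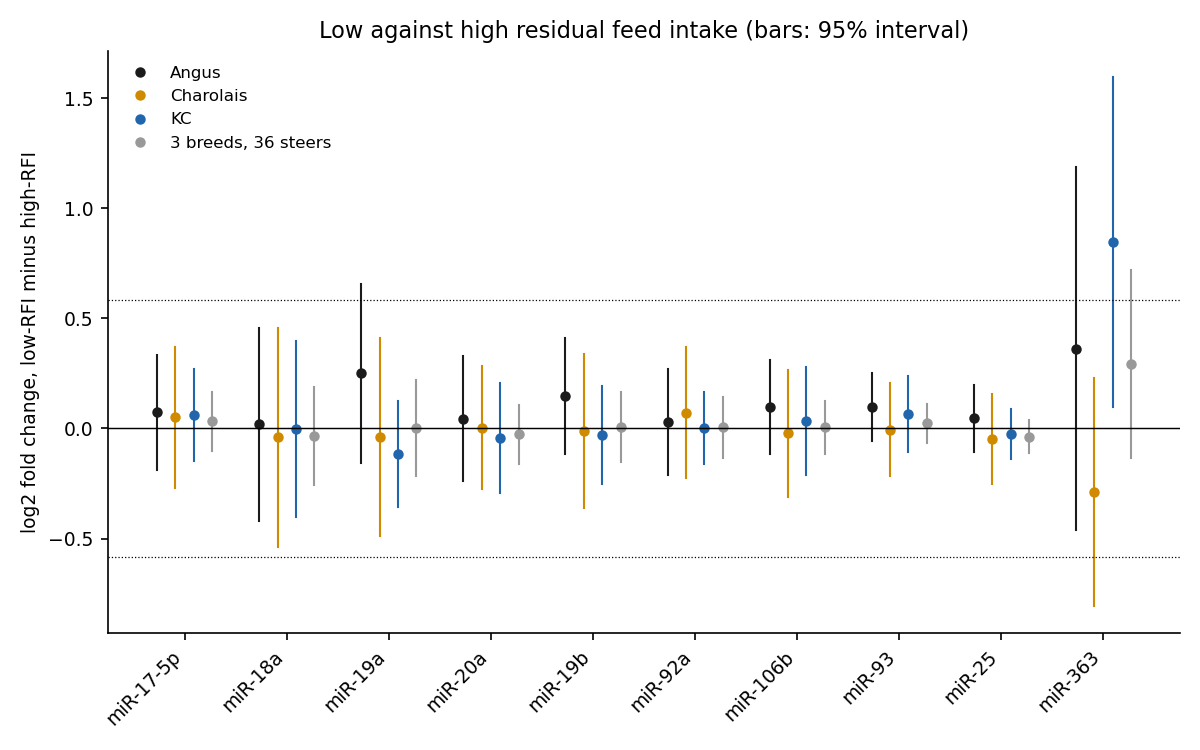
Log2 fold change of low-RFI against high-RFI steers for each member in Angus, Charolais and KC, with 95% intervals from edgeR and a line at 0. The interval of bta-miR-363 in KC, 0.10 to 1.59, lies above 0 and the other 29 intervals include 0.

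The 1 member called was bta-miR-363 in KC, the scarcest of the 10. In the 6 low-RFI steers it ranged from 2.39 to 8.13 CPM with a median of 4.02 CPM, which rested on 10 to 45 counts. In the 6 high-RFI steers it ranged from 0.854 to 3.57 CPM with a median of 3.07 CPM, which rested on 4 to 23 counts. The means were 4.63 ± 2.17 CPM (SD, n = 6) and 2.57 ± 1.12 CPM (SD, n = 6), and the groups overlapped between 2.39 and 3.57 CPM. The fold change was 1.80, a log2 fold change of 0.85 with an SE of 0.35 and an unadjusted p of 0.0297 that ranked 9 of 385 miRNAs. After Benjamini-Hochberg adjustment over the 385 miRNAs the p from edgeR was 0.966. An exact two-sided permutation test over the 924 ways to divide the 12 steers gave p = 0.0736.

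The call for bta-miR-363 was lost when any 1 of 5 of the 12 steers was left out (low-RFI replicates 3, 5 and 6, and high-RFI replicates 4 and 5), with log2 fold changes over all 12 omissions of 0.60 to 0.98. It was also lost with sire as a block, where the log2 fold change was 0.07 with 2 residual degrees of freedom. Only 1 KC sire had steers in both groups, so that value compared low-RFI replicate 4 with high-RFI replicates 1, 2 and 3. In Angus the log2 fold change of bta-miR-363 was 0.36 (SE 0.39) and in Charolais -0.29 (SE 0.25). The test of a difference between breeds in this effect gave an unadjusted p of 0.0824 and an adjusted p of 0.994. Summed CPM of 7 leukocyte marker miRNAs moved in the same direction in KC, from 5138 to 6808 CPM with a median of 5490 CPM in low-RFI steers and from 4718 to 5261 CPM with a median of 4953 CPM in high-RFI steers. In KC the median sums of hepatocyte and biliary marker miRNAs were also higher in low-RFI steers. Those of erythroid, endothelial and mesenchymal marker miRNAs were lower in low-RFI steers. Over all steers, bta-miR-363 and the leukocyte sum had a Pearson r of 0.29 in log2 CPM centred on the breed mean. The permutation test of that r gave an adjusted p of 0.16. All 7 leukocyte markers were above 0 in every steer, and their part in the result was not tested. Most of their sum was bta-miR-142-5p, with a median of 3409 CPM over all steers beside 5088 CPM for the sum. In whole liver, fewer cells of a type and less RNA per cell cannot be told apart.

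Across the 36 steers with an RFI group, with breed as a term, 0 of 10 members had an adjusted p under 0.05 in edgeR, as did 0 of 426 tested miRNAs, a background of 0%. At an unadjusted p under 0.05 there were 0 members and 13 of all miRNAs, and the likelihood ratio test and DESeq2 called 0 members each. The largest log2 fold change among the members was 0.29 (SE 0.21) for bta-miR-363, and the other 9 lay between -0.04 and 0.03. For bta-miR-92a the 95% interval was -0.13 to 0.14, and for bta-miR-93 it was -0.06 to 0.11. A different RFI effect by breed (the interaction) was called for 0 of 10 members and for 0 of 426 miRNAs, a background of 0%, with 0 members and 16 of all miRNAs at an unadjusted p under 0.05.

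The breeds had nearly the same level of every member. In the quasi-likelihood F test over the 3 breeds 0 of 10 members had an adjusted p under 0.05, whereas 77 of 397 miRNAs, 19.4%, did. That share may include miRNAs listed for KC alone, which stood at 0 in the other breeds. How many it includes was not counted. At an unadjusted p under 0.05 there were 2 members, bta-miR-25 and bta-miR-20a, whose adjusted p-values from edgeR were 0.0751 and 0.0975. DESeq2 called 1 member, bta-miR-25, with an adjusted p of 0.0423, and the likelihood ratio test called 0. The median of bta-miR-92a was 7004 CPM in Angus, 6922 CPM in Charolais and 6654 CPM in KC, with an adjusted p of 0.353. bta-miR-93 had medians of 417, 410 and 410 CPM in the same order, with an adjusted p of 0.932.

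Between pairs of breeds, 0 of 10 members were called for Charolais against Angus (background 3.02%) and 0 of 10 for KC against Angus (12.8%). For these 2 contrasts the unadjusted p was under 0.05 for 0 members and 1 member, and DESeq2 and the likelihood ratio test called 0 members in both. For KC against Charolais 1 of 10 was called (16.6%, and 8.06% lower in KC), so the members were called no more often than all miRNAs. The background shares of the contrasts with KC may include miRNAs listed for KC alone, which limits this comparison. The member called was bta-miR-25. It ranged from 1779 to 2554 CPM with a median of 1995 CPM in Angus, from 1777 to 2392 CPM with a median of 2089 CPM in Charolais and from 1531 to 2851 CPM with a median of 1853 CPM in KC. The steers overlapped over most of the range, and the highest single steer was a KC steer.

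The log2 difference of bta-miR-25, KC minus Charolais, was -0.14 (SE 0.05), a fold change of 0.909 with an adjusted p of 0.0344 in edgeR. Leaving out 1 steer at a time gave log2 differences of -0.19 to -0.11, and the call was lost in 23 of 60 omissions. It was also lost with library totals in place of TMM scaling (adjusted p = 0.237), without a filter on low counts (0.0557) and without the precursors listed for KC alone (0.0866). bta-miR-20a, from the other cluster, differed in the opposite direction by 0.17 (SE 0.06) with an adjusted p of 0.0640. Its Angus median was 48.2 CPM, its Charolais median 48.1 CPM and its KC median 55.2 CPM.

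**Figure D3:**
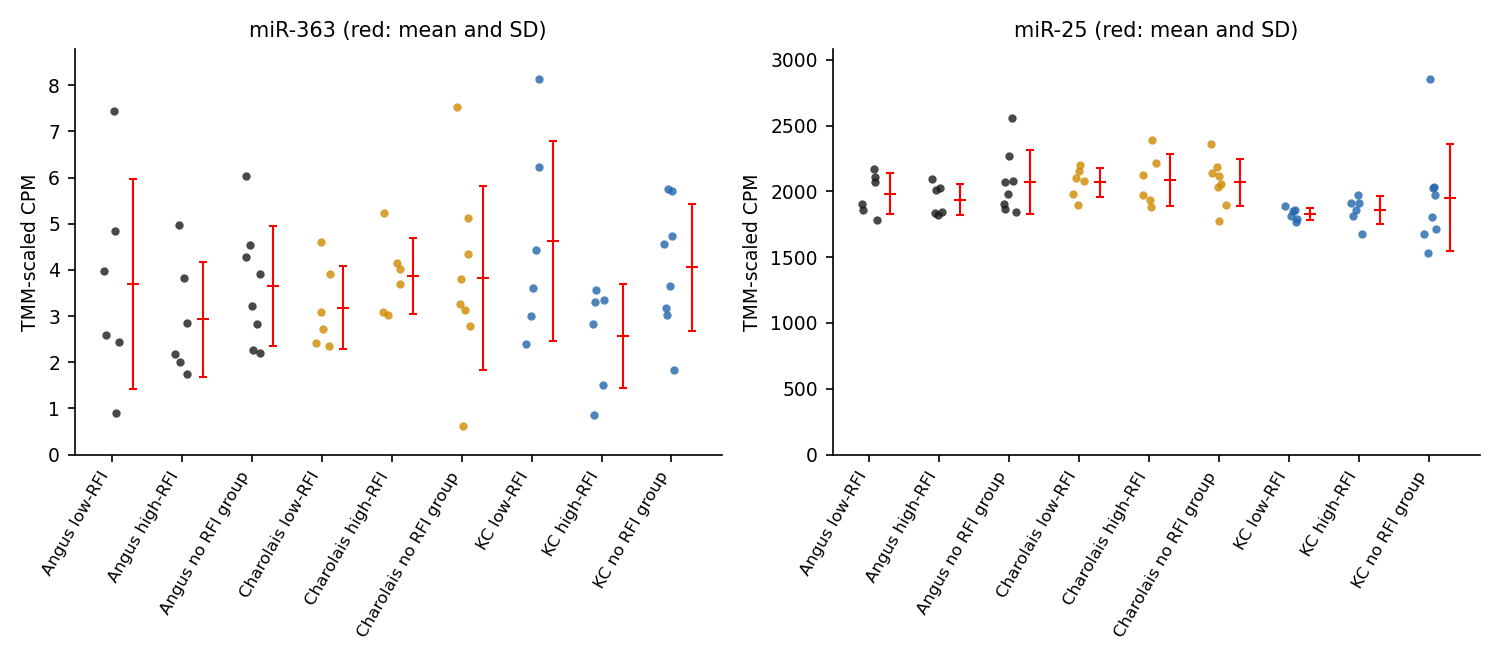
Level of bta-miR-363 and bta-miR-25 by breed and RFI group, in TMM-scaled CPM, with 1 point per steer and the mean and SD of each group in red. bta-miR-363 in KC had a mean of 4.63 CPM in low-RFI steers and 2.57 CPM in high-RFI steers, with overlapping points, and bta-miR-25 in KC held the highest steer at 2851 CPM.

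Whether members that share a transcript rise and fall together from steer to steer was examined with the correlation of log2 CPM, centred on the breed mean, over all 60 steers for the 45 pairs of members. A total of 5 pairs had an adjusted permutation p under 0.05 (100000 shuffles of steers within breeds, adjusted over the 45 pairs), and all 5 were positive. The median Pearson r was 0.19 over the 15 pairs within the miR-17-92 members, 0.03 over the 3 pairs within the miR-106b-25 members, 0.0036 over the 18 pairs between the clusters and 0.04 over the 9 pairs with bta-miR-363. Over all 78606 pairs of tested miRNAs the median r was 0.0016, the 95th percentile was 0.32 and 1.11% were above 0.5.

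These medians depended on the scaling of the libraries. With library totals in place of TMM factors, which ran from 0.673 to 1.17, 32 of the 45 pairs passed, with medians of 0.42 within miR-17-92, 0.53 within miR-106b-25 and 0.42 between the clusters. The median over all pairs of miRNAs then rose to 0.10, with 4.58% above 0.5. Hence the values below are those with TMM scaling, and each is a correlation relative to the other miRNAs of the liver.

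The closest pair was bta-miR-19a with bta-miR-19b, neighbours in the cluster with the same seed. Its r was 0.80 (Spearman's rho 0.75, permutation p = 1e-05, the smallest that 100000 shuffles can give, adjusted p = 0.00015), with 0.81 in Angus, 0.82 in Charolais and 0.79 in KC. Without the 2 steers farthest from the median of bta-miR-19a it was 0.74. The log2 ratio of the 2 miRNAs had an SD over steers of 0.18, against 0.13 from counting. As they differ at 1 position, the part that reads credited to the wrong copy have in this r was not tested.

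bta-miR-17-5p with bta-miR-20a, which also share a seed and a cluster, had an r of 0.55 (rho 0.40, permutation p = 1e-05, adjusted p = 0.00015), with 0.74 in Angus, 0.27 in Charolais and 0.64 in KC, and 0.48 without the 2 farthest steers. bta-miR-106b with bta-miR-93, the pair of the miR-106b-25 cluster with the AAAGUGC seed, had an r of 0.58 (rho 0.53, permutation p = 2e-05, adjusted p = 0.000225), with 0.40, 0.62 and 0.63 in the 3 breeds, and 0.50 without the 2 farthest steers. The log2 ratio of bta-miR-106b to bta-miR-93 had an SD of 0.14 against 0.12 from counting, so the ratio of these 2 members hardly varied beyond counting error. bta-miR-20a with bta-miR-19b had an r of 0.43 (rho 0.51, permutation p = 0.00074, adjusted p = 0.00666), with 0.32, 0.57 and 0.46 in the breeds, and 0.50 without the 2 farthest steers.

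The fifth pair joined the clusters. bta-miR-92a with bta-miR-93, which share neither seed nor locus, had an r of 0.63 (rho 0.57, permutation p = 1e-05, adjusted p = 0.00015), with 0.48 in Angus, 0.69 in Charolais and 0.67 in KC, and 0.55 without the 2 farthest steers. By contrast bta-miR-92a showed almost no relation to bta-miR-19b, its neighbour in the cluster (r = 0.08), to bta-miR-19a (-0.09) or to bta-miR-25, its partner by seed (0.00027). bta-miR-25 also had an r of only 0.03 with bta-miR-93, although both lie in MCM7. The log2 ratio of bta-miR-92a to bta-miR-25 had an SD of 0.30 over steers against 0.018 from counting, so counting error was small beside the spread of that ratio.

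**Figure D4:**
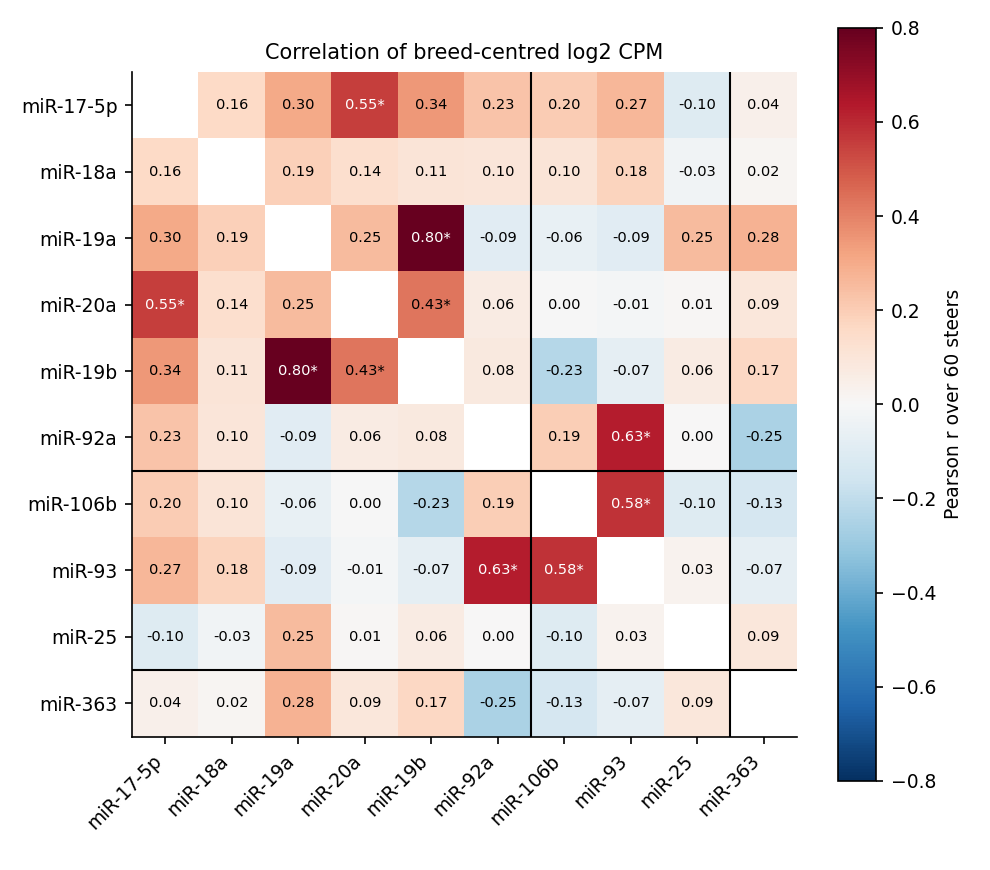
Pearson r of breed-centred log2 CPM over 60 steers for each pair of the 10 members, ordered by cluster, with colours for the value of r. The pair bta-miR-19a with bta-miR-19b reaches 0.80, and bta-miR-92a with bta-miR-93 reaches 0.63 across the clusters.

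Grouped by cluster and seed, the 3 pairs that shared both had a median r of 0.58, and all 3 passed, although bta-miR-92a with bta-miR-93 exceeded 2 of them. The 15 pairs that shared a cluster but not a seed had a median of 0.14 and 1 passed, the 5 pairs that shared a seed but not a cluster had a median of 0.00027 and 0 passed, and the 22 pairs that shared neither had a median of 0.03 and 1 passed. These counts are a description of 45 pairs that are not independent of each other. Over 14 alternatives each, r ran from 0.72 to 0.88 for bta-miR-19a with bta-miR-19b, from 0.45 to 0.77 for bta-miR-92a with bta-miR-93, from 0.31 to 0.83 for bta-miR-106b with bta-miR-93, from 0.27 to 0.76 for bta-miR-17-5p with bta-miR-20a and from 0.32 to 0.58 for bta-miR-20a with bta-miR-19b.

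**Figure D5:**
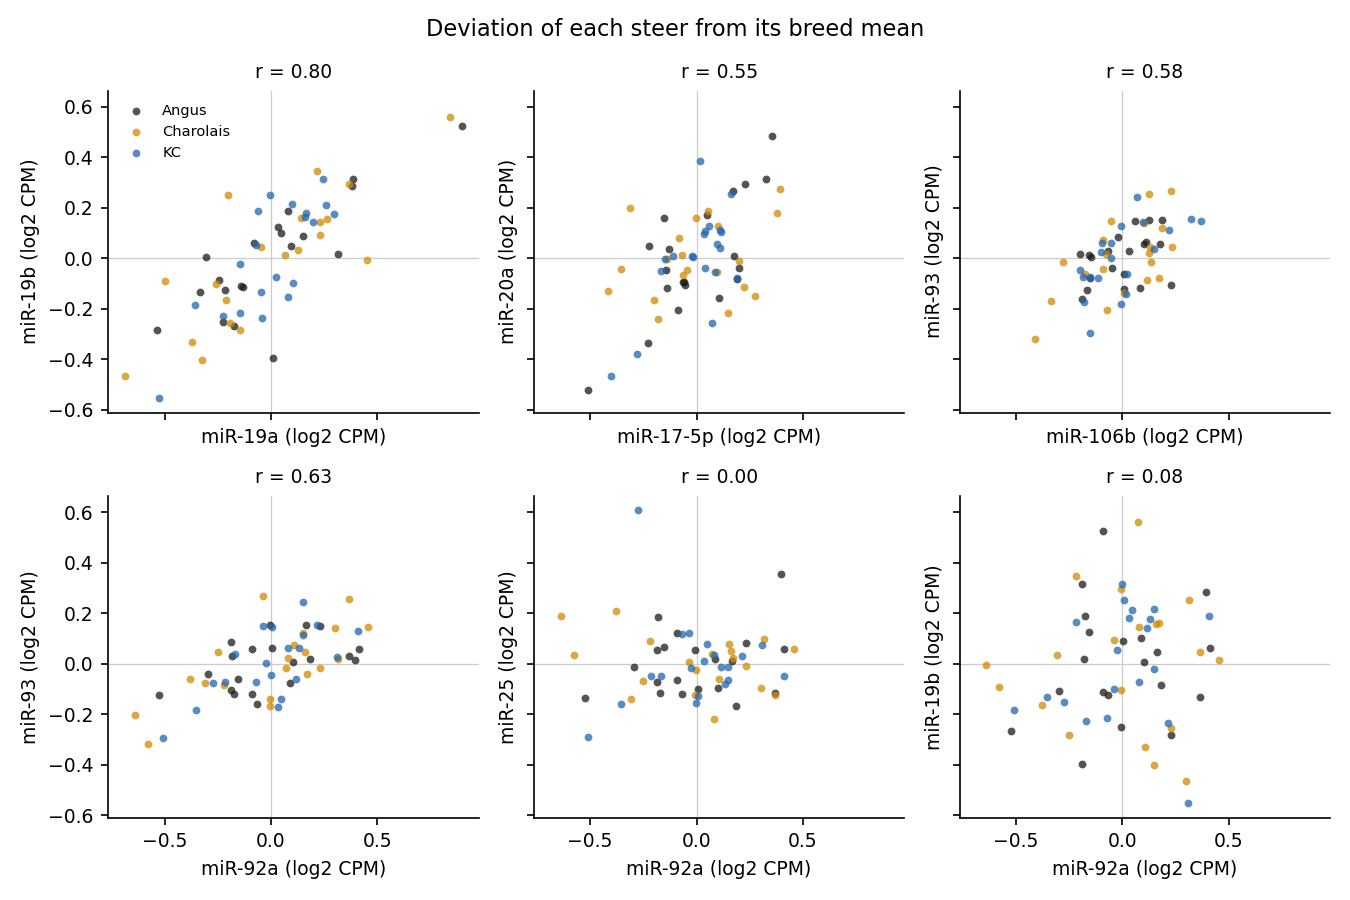
Breed-centred log2 CPM of 6 pairs of members, with 1 point per steer and colours for the breeds. bta-miR-19a and bta-miR-19b lie along a line (r = 0.80), bta-miR-92a and bta-miR-93 do so more loosely (r = 0.63), and bta-miR-92a and bta-miR-25 show no line (r = 0.00).

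Liver samples hold hepatocytes, endothelium, bile duct epithelium, stellate cells and blood, and the members were set beside marker miRNAs of each. Every marker was above 0 in every steer, and the hepatocyte marker bta-miR-122 ran from 5361 to 17372 CPM, as the label of the tissue asks. Of the 60 pairs of a member with a marker list, 5 had an adjusted permutation p under 0.05, and all 5 were negative. The erythroid, leukocyte, endothelial and hepatocyte lists gave 0 each. Their r ran from -0.10 to 0.14 for the erythroid list and from -0.33 to 0.29 for the leukocyte list. It ran from -0.17 to 0.33 for the endothelial list and from -0.23 to 0.26 for the hepatocyte list. Each of these sums rested mostly on 1 miRNA. The hepatocyte sum had a median of 243008 CPM, and bta-miR-192 alone had 232606 CPM. For the erythroid sum it was 7406 CPM beside 6797 CPM for bta-miR-486. The endothelial sum had 17006.5 CPM beside 15343 CPM for bta-miR-126-5p, and the leukocyte sum 5088 CPM beside 3409 CPM for bta-miR-142-5p. Over the 60 steers the mesenchymal list had an r of -0.61 with bta-miR-93 (adjusted p = 0.0006), -0.58 with bta-miR-17-5p (0.0006), -0.48 with bta-miR-92a (0.0048) and -0.39 with bta-miR-106b (0.0241). Spearman's rho was -0.61, -0.51, -0.49 and -0.32 in the same order, and for bta-miR-106b it did not pass (adjusted p = 0.139).

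The summed level of the mesenchymal list was 98.9% bta-miR-143 at the median (98.4% to 99.4%), so it is close to the level of 1 miRNA. With the other markers of the list the signs were mixed: bta-miR-145 had an r of -0.69 with bta-miR-93 and 0.08 with bta-miR-17-5p, and bta-miR-199a-3p had an r of 0.09 with bta-miR-93. Within breeds, bta-miR-92a with the list had an Angus r of 0.04, a Charolais r of -0.66 and a KC r of -0.84, and the r of bta-miR-93 was -0.29, -0.71 and -0.78. The biliary list had an r of -0.40 with bta-miR-92a (rho -0.41, adjusted p = 0.0168), with -0.53, -0.43 and -0.30 in the 3 breeds. With library totals in place of TMM factors, 27 of the 60 pairs passed. The part of these cell types in the pairs above was not tested.

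Among all other tested miRNAs, those most like the summed CPM of the miR-17-92 members over 60 steers were bta-miR-423-5p (r = 0.73), bta-miR-339b (0.72) and bta-miR-339a (0.69). bta-miR-92a makes up most of that sum. bta-miR-423-5p had an Angus r of 0.67, a Charolais r of 0.74 and a KC r of 0.78. For the summed CPM of the miR-106b-25 members the most alike were bta-let-7a-5p (0.46), bta-let-7g (0.45) and bta-miR-98 (0.43), and the r of bta-let-7g changed sign between breeds, from -0.18 in Angus to 0.75 in KC. These miRNAs were picked for the value shown, so the values are a description without a test.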

How the data were processed

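Small RNA libraries (Illumina TruSeq) from liver were sequenced by the authors. Per the labels and methods, reads were demultiplexed with bcl2fastq 2.17.1.14, checked with FastQC 0.11.7 and clipped with cutadapt 1.16, reads of 15 to 28 bases were kept, and reads of ribosomal, transfer and other small RNAs were removed. Reads were aligned with Bowtie 1.1.1 to the bovine genome UMD3.1 and counted with miRDeep2 against miRBase. The deposited values are raw counts of reads per mature miRNA and precursor, not normalized, for each steer. How reads that match several near-identical miRNAs were shared is not given in the sources used here.

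From these, counts over the precursors of a mature miRNA were averaged, as the authors did, and rounded for the tests. A total of 52 pairs of miRNA and precursor were listed for KC alone, none of them with a member. In Angus and Charolais such a pair was left out of the mean, and a miRNA with no other pair counted as 0. No libraries were identical. Groups came from the labels. Library sizes were scaled with the trimmed mean of M values (TMM), and CPM are on that scale. Quasi-likelihood tests used edgeR 4.0.16 (limma 3.58.1, R 4.3.3) with Benjamini-Hochberg adjustment over all miRNAs tested. Low-RFI was compared with high-RFI within breeds over miRNAs that reached 1 CPM in 6 or more of 12 steers, with exact permutation tests over 924 relabelings. Breeds were compared over those that reached 1 CPM in 20 or more of 60. Correlations used log2 CPM (prior count 0.5), centred on the breed mean, with 100000 shuffles within breeds. The quasi-likelihood tests of RFI within breeds and of KC against Angus, and the correlations, were tried on simulated data. Alternatives were the edgeR likelihood ratio test, DESeq2 1.42.0, other scaling, other filters, other handling of precursors, a block for sire and the omission of single steers. Figures used matplotlib 3.10.9. The text names all members, every other mature miRNA of these clusters, bta-miR-92b and, for each cluster, the 3 miRNAs with the highest r. bta-miR-32 is named only for its seed. Members and lists were chosen with earlier results of these data known.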

Additional observations from a re-analysis of the deposited data

Results flagged for a closer look

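In each group of 4 to 10 steers the highest and the lowest value of each member were compared with the nearest other steer by Dixon's criterion. Of 90 combinations of member and group 3 stood apart, where chance flags about 1 in 20. bta-miR-18a in KC high-RFI replicate 1 was the lowest of 6 steers at 2.861 CPM, with the next steer at 4.972 CPM, and its value rested on 13 counts. bta-miR-106b in KC no RFI group replicate 1 was the highest of 8 steers at 53.78 CPM, with the next at 44.49 CPM. bta-miR-25 in KC no RFI group replicate 2 was the highest of 8 steers at 2851 CPM, with the next at 2035 CPM. Without this last steer the breed comparison of bta-miR-25 reached an adjusted p of 0.00158 in edgeR, against 0.0751 with it. The cause of the 3 values was not tested.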

How the results depend on the processing

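The counts of members called changed by 1 member in the settings named here. When each steer was left out in turn, the count changed in 5 of 12 omissions for RFI in KC. It changed in 7 of 60 omissions for the 3 breeds and in 19 of 60 for KC against Charolais. For low-RFI against high-RFI steers, the count rose to 1 in Angus with sire as a block. In KC it fell from 1 to 0 with sire as a block and when at least 10 counts were asked of every steer, which removes bta-miR-363, and ranged from 0 to 1 when each steer was left out. For the 3 breeds, the count rose from 0 to 1 (bta-miR-25) with DESeq2, with precursor counts summed and with the 36 labelled steers alone, and ranged from 0 to 1 without each steer. For KC against Charolais it fell to 0 with library totals, without a filter on low counts and without the precursors listed for KC alone, rose to 2 without the 2 steers with a TMM factor under 0.8, and ranged from 0 to 2 without each steer. The omission of those 2 steers, of each steer in the breed test, and of the erythroid level were alternatives chosen after seeing the data. The median r within miR-17-92 was 0.42 with library totals, 0.078 with every steer thinned to the lowest total, 0.31 in KC alone and 0.31 in the 36 labelled steers. Within miR-106b-25 it was 0.53 with library totals and -0.24 in Charolais alone. Between the clusters it was 0.42 with library totals, 0.089 when centred on sire families, 0.18 in Angus alone and 0.082 in KC alone. The correlating pairs numbered 32 with library totals, 2 in Angus alone and 2 in Charolais alone, against 5. The pairs of a member with a marker list numbered 27 with library totals and 2 in KC alone, against 5. The causes were not tested. Among values of single members no setting that was run reversed a called direction. Depth limits bta-miR-18a and bta-miR-363, whose counts per steer began at 8 and 3. No paired analysis was possible because steers numbered in the labels are different animals and low-RFI and high-RFI steers of a breed share no number.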
